A study of Mus musculus with 4 samples.

Results

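The cells described here were inflammatory macrophages of mouse brown adipose tissue (BAT), the thermogenic fat depot, and they were picked for their transcripts of Il1b, Ccl3 and Ccl4. Of 28887 cells that passed quality control in 4 single-cell RNA-seq libraries, 537 (1.86%) met the rule. A member held at least 5 unique molecular identifiers (UMIs, 1 per captured transcript) per 10000 for the complement genes C1qa, C1qb and C1qc together, and at least 20 per 10000 for Il1b, Ccl3 and Ccl4 together. It also stayed under 10 for a perivascular set (Lyve1, Cd163, Folr2, Cbr2, F13a1), under 20 for a lipid-associated set (Trem2, Gpnmb, Spp1, Cd9, Mmp12), under 30 for a stromal set (Col1a1, Col1a2, Col3a1, Dcn, Gsn) and under 20 for an endothelial set (Cdh5, Cldn5, Gpihbp1). WT held 60 members, db/db 8w had 391, the db/db 16w library 39 and HFD 47.

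Each library was made from the BAT stromal vascular fraction, the non-adipocyte cells, of 3 pooled mice. WT was C57BL6/J at 10 weeks of age, db/db 8w and db/db 16w were B6.BKS(D)-Leprdb/J (strain label C57BL6/J) at 8 and 16 weeks, and HFD was C57BL6/J on a high-fat diet. Sets of 4 values below follow the order WT first, then db/db 8w, then db/db 16w and last HFD. Sets of 3 leave out WT unless other libraries are named. db/db mice lack a working leptin receptor in every cell and become obese and diabetic. The label of HFD gives an age of 10 weeks, while the methods start a diet of 10 weeks at that age. The methods also mention cell sorting before loading and give no gate. With 1 library per group no test between groups was possible, so every interval below is a 95% interval for counting error alone, and genotype, age, diet and library cannot be told apart.

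Il1b encodes interleukin-1β, which is made as an inactive precursor after a first signal through nuclear factor κB (NF-κB) and is cut to its active form by caspase-1 in the NLRP3 inflammasome. Ccl3 and Ccl4 encode the chemokines MIP-1α and MIP-1β, which recruit monocytes and lymphocytes. Cxcl2 recruits neutrophils through Cxcr2. Macrophages that express these genes together are known from inflamed adipose tissue, and the same genes can also be induced when tissue is digested.

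The libraries differed in ways that bear on these cells. Total UMIs per library were between 28504069 and 61828295, and median UMIs per passing cell were between 2733 and 6218.5. Barcodes with at least 15% mitochondrial UMIs made up 28.0%, 35.6%, 1.04% and 68.5% of all barcodes. The median mitochondrial share of members followed the same order, at 3.29%, 4.12%, 0.761% and 11.7%. Xist, the RNA that coats the silenced X chromosome of females, was found in 18 of 39 members of db/db 16w (46.2%) and in no member of the other libraries, and UMIs of 4 Y-linked genes numbered 161, 449, 1 and 38 in the members. The methods describe male mice, so the library labelled db/db 16w went against them, and counts over all genes and the counts of gene lists that lead a paragraph are given with and without it. Between 7 and 25 cell barcodes were shared by any pair of libraries, and no barcode was that of a member in more than 1 of them.

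Defining markers were checked next. All 9 macrophage markers (among them Adgre1, Csf1r, Cd68 and Mertk) had UMIs in members of every library, and at least 2 of them were found in 98.3%, 93.9%, 97.4% and 93.6% of members. The 4 T cell markers (Cd3e, Cd3d, Cd3g, Trac) were at 0 in members of WT, db/db 16w and HFD and summed to 12 UMIs over 391 members of db/db 8w. Neutrophil markers summed to 17, 2863, 3 and 4 UMIs, and 23 members of db/db 8w held S100a8 and S100a9 at 10 or more per 10000. The 4 stromal markers Pdgfra, Lum, Col1a1 and Dcn summed to 181, 405, 6 and 41 UMIs, and at least 2 of them were found in 58.3%, 16.4%, 0% and 14.9% of members. Predicted doublets numbered 1, 9, 4 and 1 and were kept. The marker Cxcl2, which the rule did not use, was at 16535, 23373 and 6335 CPM (counts scaled to a total of 1000000 UMIs) over the summed UMIs of members in WT, db/db 8w and HFD, and at 348 CPM in db/db 16w. The last level was below the 665 CPM of db/db 16w macrophages low for Il1b, so that library goes against the inflammatory label for this gene.

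The share of members among C1q macrophages was 5.55% in WT (60 of 1082, Clopper-Pearson interval 4.26 to 7.08%). It was 14.9% in db/db 8w (391 of 2626, 13.5 to 16.3%), 1.96% in db/db 16w (39 of 1988, 1.40 to 2.67%) and 2.85% in HFD (47 of 1647, 2.10 to 3.78%). The db/db 8w share was thus 9.34 points above WT (7.31 to 11.3), and those of db/db 16w and HFD were 3.58 (2.11 to 5.22) and 2.69 (1.11 to 4.40) points below it. Of all passing cells, members were 1.01%, 3.36%, 0.669% and 0.86%, and the differences of db/db 16w and HFD to WT then had intervals that reach 0. C1q macrophages themselves made up 18.2%, 22.5%, 34.1% and 30.2% of passing cells. Without the mitochondrial limit they numbered 1345, 3055, 1995 and 5498, so this limit removed most of those of HFD. Members then numbered 67, 429, 39 and 116, or 4.98%, 14.0%, 1.95% and 2.11% of C1q macrophages. The order of WT and HFD depended on the limit, since at 10 instead of 20 per 10000 the shares were 6.19% and 6.50%.

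**Figure D1:**
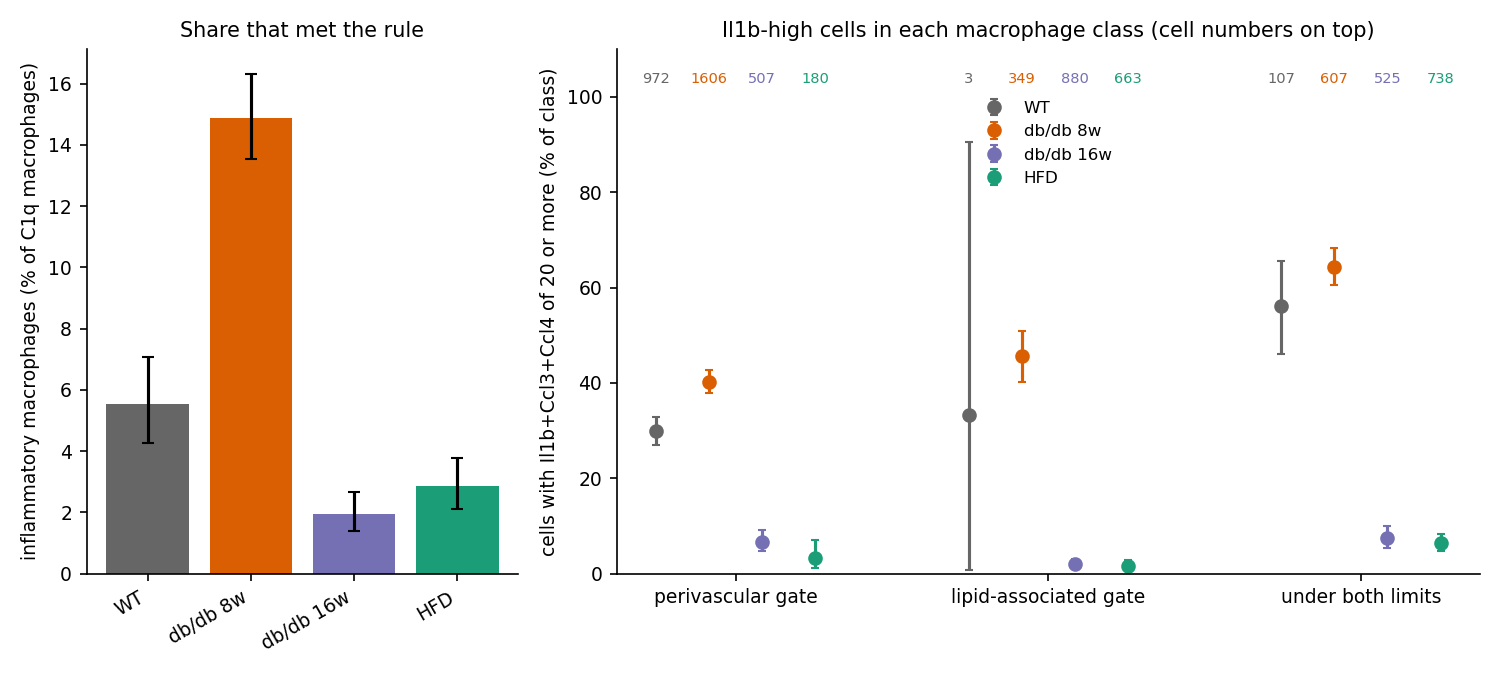
Left, members as a percentage of C1q macrophages in each library, with bars from 0 and 95% Clopper-Pearson intervals. Right, cells with at least 20 UMIs per 10000 of Il1b, Ccl3 and Ccl4 as a percentage of perivascular-gated cells, lipid-associated-gated cells and cells under both limits, with the number of cells above each point: WT and db/db 8w sit between 29.9 and 64.4% and db/db 16w and HFD between 1.51 and 7.43%.

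Cells high for Il1b, Ccl3 and Ccl4 were not confined to the members. Without the perivascular and lipid-associated limits, 352, 1224, 98 and 66 macrophages reached the minimum of 20, or 32.5%, 46.6%, 4.93% and 4.01% of C1q macrophages. The perivascular limit alone removed 82.7%, 55.1%, 42.9% and 13.6% of these, where perivascular-gated cells were 89.8%, 61.2%, 25.5% and 10.9% of C1q macrophages. Within perivascular-gated cells the high share was 29.9%, 40.3%, 6.71% and 3.33%. Within lipid-associated-gated cells it was 45.6% of 349 cells in db/db 8w, 1.93% of 880 in db/db 16w and 1.51% of 663 in HFD, while WT had only 3 such cells. Among cells under both limits, members were 56.1%, 64.4%, 7.43% and 6.37%, and the intervals of WT and db/db 8w overlap. In each gate with more than 3 WT cells, WT and db/db 8w were therefore high and db/db 16w and HFD low.

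The sum of Il1b, Ccl3 and Ccl4 over all C1q macrophages had a median of 3.16 UMIs per 10000 in WT and 16.0 in db/db 8w, and of 0 in db/db 16w and HFD. No UMI of the 3 genes was found in 37.2%, 24.3%, 70.8% and 50.2% of these macrophages. Members, chosen on this sum, ran from 21.3 to 638 in WT (median 125), from 20.2 to 492 in db/db 8w (82.1), from 21.0 to 155 in db/db 16w (38.4) and from 21.3 to 163 in HFD (35.0). Just inside the limit, from 20 to 25, lay 2, 23, 10 and 10 members. Just outside it, from 15 to 20, lay 4, 35, 11 and 20 cells that met every other limit, the highest at 18.5, 19.8, 19.99 and 19.1 per 10000. The db/db 16w and HFD members were thus nearer to the limit than those of WT and db/db 8w.

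**Figure D2:**
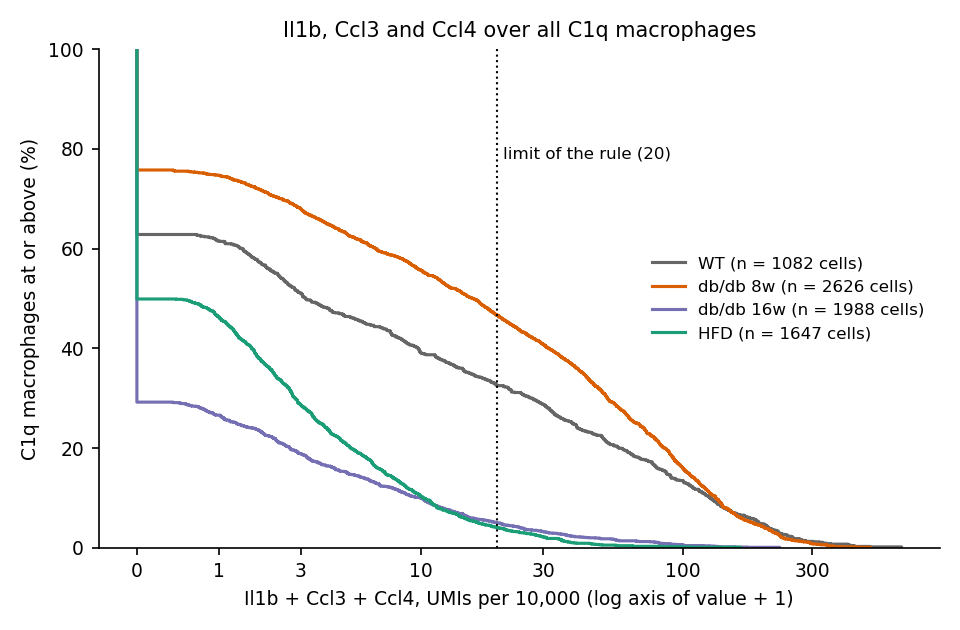
Percentage of C1q macrophages (y axis) at or above a given sum of Il1b, Ccl3 and Ccl4 in UMIs per 10000 (x axis, log scale of the value plus 1), 1 line per library, with the limit of 20 dotted. At the limit the lines stand at 32.5% for WT and 46.6% for db/db 8w, against 4.93% for db/db 16w and 4.01% for HFD, and the curves show no gap there.

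The 3 genes of the sum were not carried by the same cells in each library. Il1b (chr2:129364570-129371139, minus strand, GRCm38) was found in 91.7%, 88.2%, 46.2% and 85.1% of members. Ccl4 (chr11:83662584-83664683, plus strand) was found in 91.7%, 82.6%, 71.8% and 66.0%. Its neighbour Ccl3 (chr11:83647844-83649355, minus strand) was found in 68.3%, 47.1%, 56.4% and 42.6%. These shares are at full depth, where members had median UMIs of 9701, 6739, 4080 and 3912. Thinned to 1000 UMIs per cell, Ccl4 was found in 81.7%, 66.6%, 61.5% and 51.1%. Ccl3 was then found in 45%, 21.6%, 48.7% and 25.5%, so WT was not above db/db 16w. At full depth, all 3 genes were found together in 61.7%, 36.1%, 7.69% and 23.4% of members, and the part of depth in this was not tested. In db/db 16w, 21 of 39 members had Ccl3 or Ccl4 and no Il1b, against 5 of 60 in WT, 46 of 391 in db/db 8w and 7 of 47 in HFD. The db/db 16w members were thus mostly Ccl3 and Ccl4 cells.

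Summed over members, WT held 6307 CPM of Il1b (interval 6108 to 6510). The db/db 8w members followed with 5377 CPM (5293 to 5462), then HFD with 2196 CPM (1986 to 2424) and db/db 16w with 739 CPM (620 to 875). Ccl4 was at 7402, 3541, 2865 and 1499 CPM. For Ccl3 the order was different, at 913, 366, 1636 and 337 CPM, so db/db 16w members were highest. The db/db 8w and HFD levels had intervals that overlap (345 to 389 and 258 to 434 CPM). Over all C1q macrophages, which needs no limit on the sum, Il1b was at 1671, 2417, 42.5 and 198 CPM. Stromal-gated cells, which should lack Il1b, held 13, 77.5, 3.06 and 14.1 CPM of it. When every cell was thinned to 1000 UMIs, Il1b was found in 0.811%, 4.64%, 0.287% and 1.33% of stromal-gated cells. In members the thinned shares were 85%, 80.5%, 35.9% and 76.6%, which follow in part from the rule, since it used Il1b. Perivascular-gated cells, which were not chosen on Il1b, were at 19.3%, 30.6%, 4.19% and 5%. Median UMIs before thinning were 7307, 4037, 2775 and 5162 in stromal-gated cells and 9701, 6739, 4080 and 3912 in members.

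For the remaining genes, members were set beside Il1b-low macrophages of the same library. These met every limit of the rule but held under 20 per 10000 of Il1b, Ccl3 and Ccl4, and numbered 47, 216, 486 and 691. This is the contrast the rule itself used, so its values are a description without a test. A ratio is the log2 of summed CPM plus 10 in members over the same in Il1b-low macrophages. Of 5354 genes with a mean of at least 20 CPM, leaving out the genes of the rule, 6 (0.112%) were at least 2-fold higher in members of all 4 libraries, and 3 (0.056%) at least 2-fold lower. At any fold, 460 (8.59%) were higher in all 4 and 615 (11.5%) lower. By library, 7.06%, 1.36%, 2.19% and 1.91% of genes were at least 2-fold higher and 5.83%, 0.486%, 4.61% and 5.04% at least 2-fold lower. Members had more UMIs per cell than Il1b-low macrophages in WT (median 9701 against 3013) and db/db 8w (6739 against 2851.5), and similar numbers in db/db 16w (4080 against 4163.5) and HFD (3912 against 4642). Median mitochondrial shares were 3.29% in members against 7.13% in Il1b-low macrophages of WT, and 4.12% against 5.20%, 0.761% against 0.80% and 11.7% against 11.6% in the obese libraries. The part of the mitochondrial share in the ratios was not tested. Over the same 5354 genes without db/db 16w, a setting added after seeing the data, 15.5% were higher at any fold in the other 3 libraries and 18.7% lower, and list counts without db/db 16w are set beside these shares.

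The 6 genes were Nlrp3, Ptgs2, Cd14, Areg, Marcksl1 and Arl5c. Nlrp3 (chr11:59541568-59566956), the sensor of the inflammasome that matures interleukin-1β, was at 410, 427, 43.5 and 537 CPM in members. In Il1b-low macrophages it was at 33.6, 117, 14.2 and 140 CPM, which gave log2 ratios of 3.27, 1.78, 1.15 and 1.87. Thinned to 1000 UMIs per cell, Nlrp3 was found in 26.7%, 29.5%, 5.13% and 42.6% of members and in 2.22%, 7.14%, 0.879% and 11.7% of Il1b-low cells. In db/db 16w only 8 member UMIs stood behind it.

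Ptgs2 (chr1:150100031-150108227), which encodes the prostaglandin-forming enzyme cyclooxygenase-2, was at 1882, 694, 38.1 and 94.1 CPM in members and 192, 300, 12.5 and 33.5 CPM in Il1b-low macrophages. Its log2 ratios were 3.23, 1.18, 1.09 and 1.26, from 7 member UMIs in db/db 16w. Cd14, the co-receptor for lipopolysaccharide, was at 2683, 2801, 462 and 941 CPM in members against 379, 886, 188 and 457 CPM, with log2 ratios of 2.79, 1.65, 1.26 and 1.02. Cd14 was no longer at least 2-fold higher in all 4 once predicted doublets were removed, nor against all other C1q macrophages. Areg (chr5:91139599-91148432), the growth factor amphiregulin, was at 227, 762, 27.2 and 71.9 CPM. Its Il1b-low level in WT was 0, so the WT difference was at least 15.7-fold (against 3 counts over the class), and its log2 ratios in the obese libraries were 2.06, 1.49 and 1.46.

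Marcksl1 (chr4:129513581-129515985), a calmodulin- and actin-binding protein of the MARCKS family, was at 638, 305, 70.7 and 476 CPM in members and 134, 83.8, 20.6 and 125 CPM in Il1b-low macrophages. Arl5c (chr11:97989578-97996181), a small GTPase of the ARF-like family, was at 263, 127, 65.2 and 172 CPM against 62.4, 32.2, 27.1 and 50.8 CPM. WT, db/db 8w and HFD were each higher than db/db 16w for all 6 genes. Without db/db 16w, 22 genes were at least 2-fold higher, among them also Il1a, Cxcl3, Ccl7, Tnfsf9 and Rel, and without db/db 8w 10 were. The 6 genes depended on how cells were gated by depth. With every cell gated on 1000 UMIs drawn from it and all its UMIs summed, a setting added after seeing the data, only Nlrp3 was at least 2-fold higher in all 4 libraries, and with the thinned UMIs alone none of the 6 was. In db/db 16w the direction turned in the first of these settings for Areg (-0.42 log2) and Ptgs2 (-0.17 log2). With the thinned UMIs alone, Areg was at -0.68 log2 in db/db 16w and -0.93 in HFD.

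**Figure D3:**
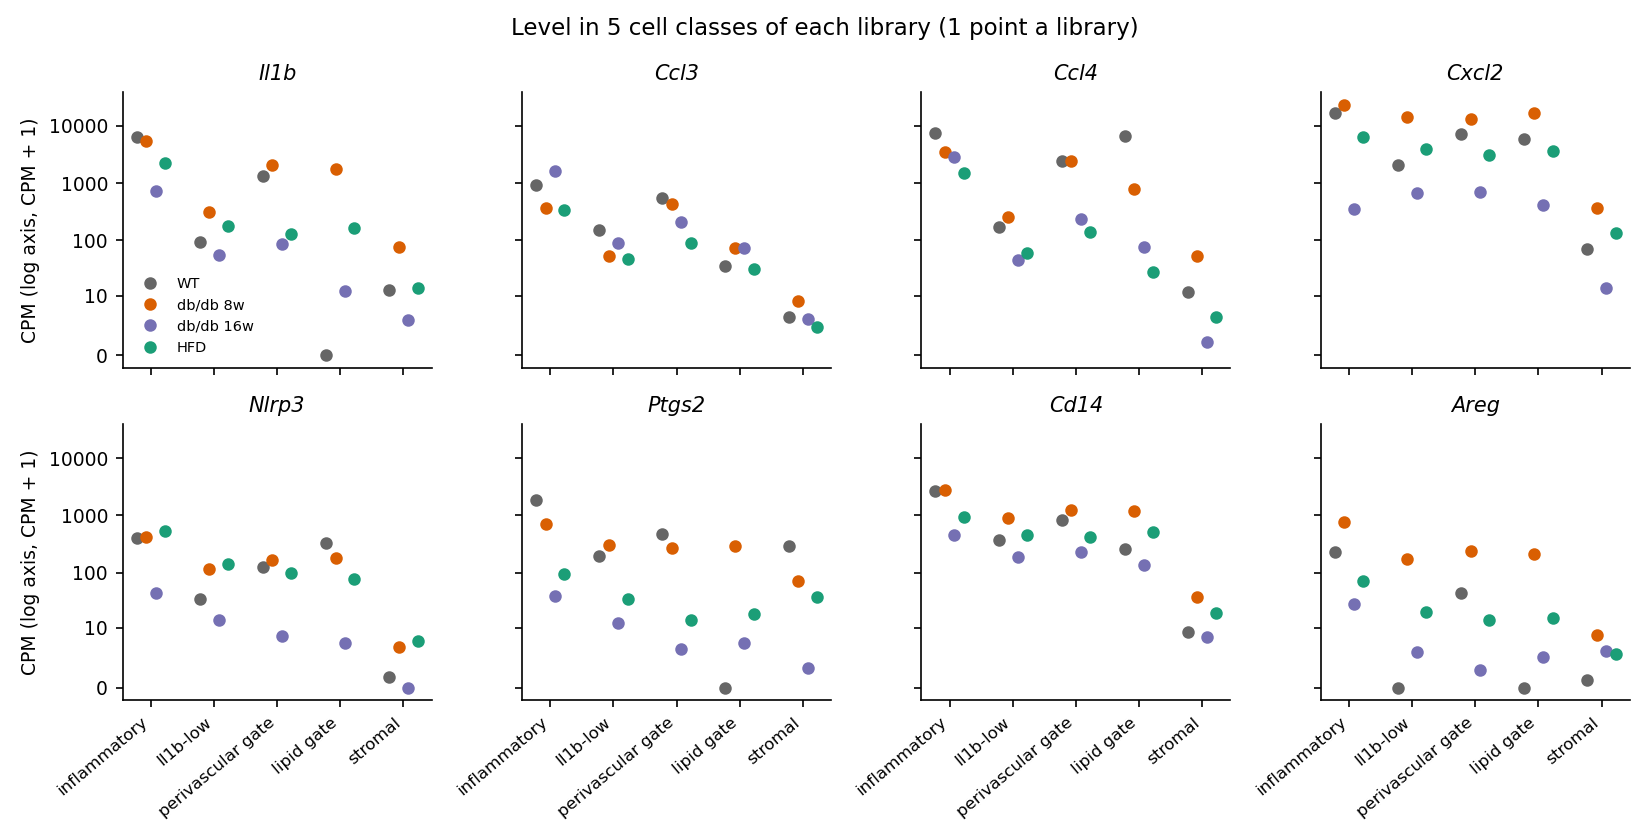
Summed CPM (y axis, log scale of CPM plus 1) of 8 genes in members, Il1b-low, perivascular-gated, lipid-associated-gated and stromal-gated cells, 1 point per library. Il1b, Ccl3 and Ccl4 chose the classes, Nlrp3, Ptgs2, Cd14 and Areg are higher in members than in Il1b-low cells of each library, Cxcl2 is lower in db/db 16w members (348 against 665 CPM), and the WT lipid-associated point is 3 cells.

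The same contrast was drawn within perivascular-gated cells, none of which are members, between those at or above 20 per 10000 and those below. Here 495 of 5354 genes (9.25%) were higher in all 4 libraries, 20 of them (0.374%) by at least 2-fold, and 4 of the 6 genes were among the 495. Nlrp3 had log2 ratios of 3.12, 2.71, 1.69 and 2.10, and Cd14 of 2.42, 2.28, 1.31 and 1.12. Ptgs2 had ratios of 4.66, 3.03, 0.95 and 2.89, and Marcksl1 of 1.70, 1.68, 1.93 and 0.50. Arl5c had ratios of 2.21, 1.72, -0.13 and 1.76. Areg was higher in WT (3.28) and db/db 8w (3.43), and had no UMI in the high cells of db/db 16w and HFD, of which there were 34 and 6. Low cells there held 1.14 and 14.7 CPM of Areg, so a 0 in so few high cells shows no direction. All HFD ratios of this contrast rest on those 6 high cells. Cxcl2, which had a lower summed CPM in members of db/db 16w, was higher in high perivascular-gated cells there, at 2270 against 584 CPM.

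Inflammatory cytokines and chemokines were compared as a list of 23 genes, of which 19 passed the level. Of these, 8 were higher in members of all 4 libraries, beside 8.59% of all genes, and without db/db 16w 14 were, beside 15.5%. The 1 gene at least 2-fold higher in all 4 was Ptgs2, an enzyme, and 0 of the cytokines and chemokines of the list were. At least 2-fold higher in single libraries were 15, 10, 2 and 8 of the 19, beside 7.06%, 1.36%, 2.19% and 1.91% of all genes. The median log2 ratio of the list was 2.73, 1.01, 0.00 and 0.68, while the medians of all genes lay between -0.05 and 0.04. On the CPM scale without a pseudocount, with genes that had no UMI in a class set to 3 counts or left out where that gives no bound, the medians were 2.76, 1.11, 0.31 and 1.06. Summed, the list was at 30562, 36199, 1854 and 10103 CPM in members, against 4759, 21104, 1983 and 6106 CPM in Il1b-low macrophages. It was therefore already high in the Il1b-low cells of db/db 8w. In db/db 16w its sum was no higher in members than in Il1b-low cells. That sum holds Cxcl2, which was lower in these members, and 9 of the 19 genes were higher there.

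Chemokines of the CXC family attract neutrophils and T cells. Cxcl2 (chr5:90903871-90905938) had log2 ratios of 3.02, 0.72, -0.92 and 0.66. Thinned to 1000 UMIs, it was found in 90%, 97.1%, 20.5% and 87.2% of members, in 37.8%, 68.9%, 17.6% and 77.0% of Il1b-low cells and in 4.51%, 16.9%, 0.956% and 8.98% of stromal-gated cells. In db/db 16w the intervals of members (9.30 to 36.5%) and Il1b-low cells (14.2 to 21.4%) overlap, so no difference was detectable at this depth. The intervals overlap in HFD as well (74.3 to 95.2% and 73.6 to 80.1%). Cxcl1 was at 2378, 5348, 136 and 946 CPM in members and 351, 3238, 93.5 and 500 CPM in Il1b-low cells. Cxcl10, an interferon-induced ligand of Cxcr3, was at 1725, 613, 0 and 33.2 CPM in members.

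Among cytokines, Tnf was at 941, 943, 43.5 and 216 CPM in members and 322, 716, 32.0 and 101 CPM in Il1b-low macrophages. Il1a, the second agonist of the interleukin-1 receptor, was at 308, 259, 0 and 16.6 CPM. Its antagonist Il1rn was at 351, 307, 43.5 and 99.6 CPM, with log2 ratios of 3.05, 1.06, 0.14 and 0.36. Il6 was at 610 and 178 CPM in WT and db/db 8w members and had no UMI in those of db/db 16w and HFD, where 3 counts would be 16.3 and 16.6 CPM. Ccl2, which recruits monocytes through Ccr2, was at 1097, 639, 707 and 592 CPM in members and was higher than in Il1b-low cells in each library, with log2 ratios of 2.01, 0.75, 0.70 and 2.21. Ccl7 stood at 718, 283, 54.4 and 465 CPM.

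NF-κB regulators and target genes were mostly higher in members of all 4 libraries. Of 25 genes 24 passed the level and 20 of these were higher, beside 8.59% of all genes, and 23 were without db/db 16w, beside 15.5%. None was higher by 2-fold in all 4, where 0.112% of all genes were. The list had medians of 1.29, 0.74, 0.53 and 0.74 log2. Nfkbia, the inhibitor that holds NF-κB in the cytoplasm and is itself an NF-κB target, was at 5031, 4361, 614 and 1278 CPM in members against 1926, 3262, 421 and 834 CPM. Tnfaip3, the deubiquitinase A20 that ends the signal, was at 1174, 903, 217 and 398 CPM against 442, 557, 85.8 and 271 CPM. Rel, a subunit of NF-κB, was at 610, 580, 147 and 1101 CPM with log2 ratios of 1.06, 1.08, 0.82 and 1.14. Cd83 (0.97, 0.66, 1.32 and 0.76 log2) and Ier3 (0.91, 0.72, 1.55 and 0.82 log2) were higher in each library too. Nfkb1, Rela, Nfkbid and Zc3h12a were the 4 that were not, and 3 of them were below Il1b-low cells in db/db 16w, Nfkb1 at -0.60 log2.

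**Figure D4:**
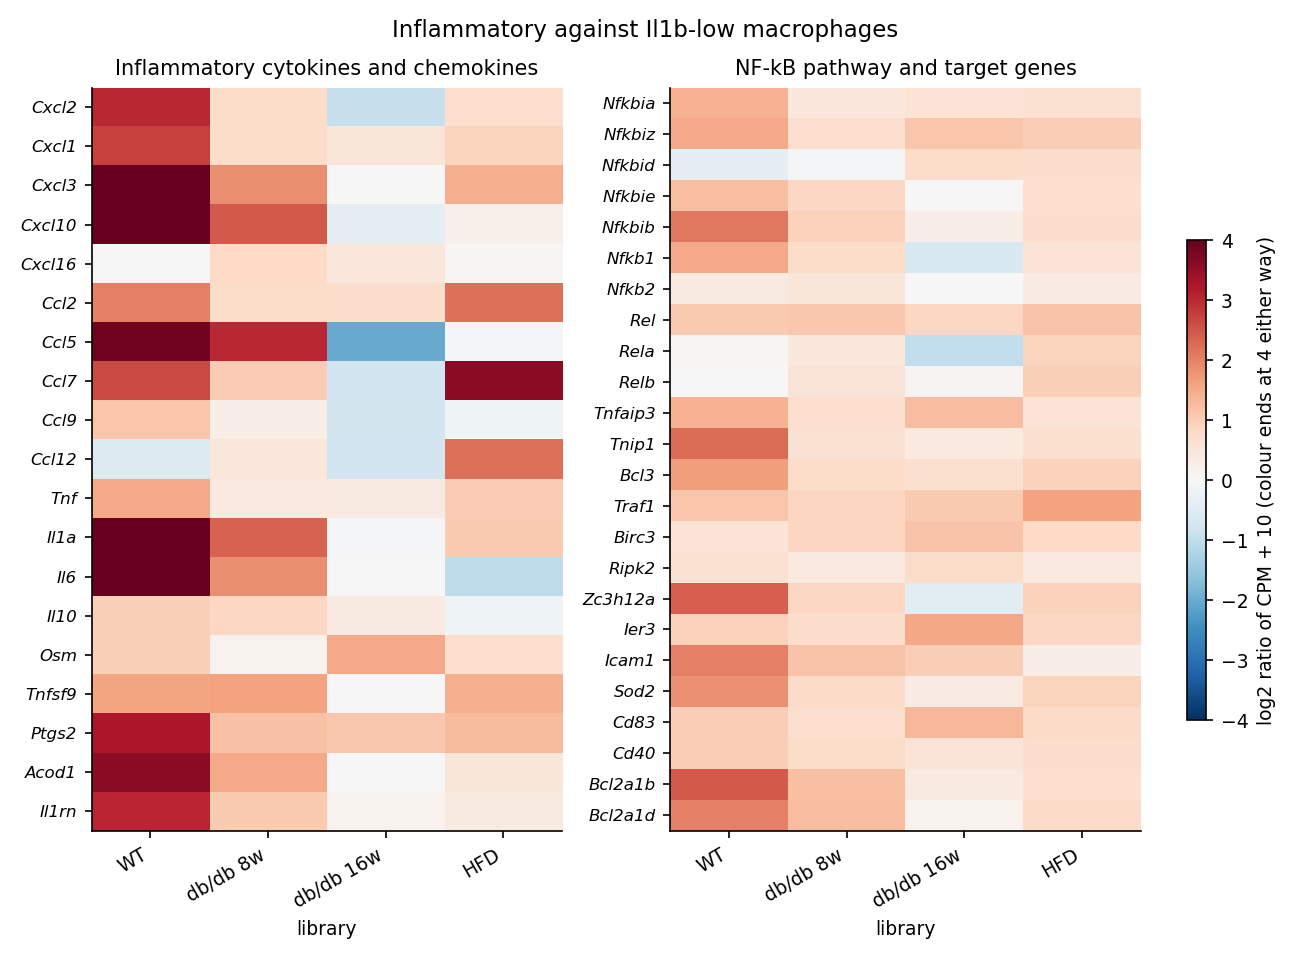
Log2 ratio of CPM plus 10 in members over Il1b-low macrophages (colour, red higher and blue lower) for each gene that passed the level in the cytokine and chemokine list (left) and the NF-κB list (right), with libraries in columns. WT has the highest medians (2.73 and 1.29), db/db 16w has a cytokine median of 0.00, and 20 of 24 NF-κB genes are red in every column.

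Promoter windows of 250 bases before the start site are shown for Cxcl2, Nfkbia, Il1b and Ccl3, because these genes choose or mark the cells or, like Nfkbia, are textbook targets of NF-κB. They come from RefSeq on GRCm38.p6 and are printed 5′ to 3′ on the strand of the gene, with matches to a κB-like motif (GGG, any 2 bases, then TTTCC) on either strand in capitals. Distances to the start are from the RefSeq start. For Cxcl2 and Ccl3 it differs from that of the gene coordinates given above, and the Cxcl2 window reaches into those. The windows are chr5:90903649-90903898 (plus) for Cxcl2, chr12:55492648-55492897 (minus) for Nfkbia, chr2:129371140-129371389 (minus) for Il1b and chr11:83649379-83649628 (minus) for Ccl3.
Cxcl2: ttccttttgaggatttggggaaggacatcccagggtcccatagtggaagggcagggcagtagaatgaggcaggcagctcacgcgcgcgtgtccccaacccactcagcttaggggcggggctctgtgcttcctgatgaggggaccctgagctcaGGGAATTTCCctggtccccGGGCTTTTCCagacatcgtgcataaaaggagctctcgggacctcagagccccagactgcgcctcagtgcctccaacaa
Nfkbia: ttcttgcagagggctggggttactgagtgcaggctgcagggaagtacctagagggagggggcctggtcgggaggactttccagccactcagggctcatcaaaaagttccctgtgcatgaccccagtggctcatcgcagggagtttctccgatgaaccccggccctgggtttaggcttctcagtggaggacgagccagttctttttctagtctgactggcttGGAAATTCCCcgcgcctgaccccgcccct
Il1b: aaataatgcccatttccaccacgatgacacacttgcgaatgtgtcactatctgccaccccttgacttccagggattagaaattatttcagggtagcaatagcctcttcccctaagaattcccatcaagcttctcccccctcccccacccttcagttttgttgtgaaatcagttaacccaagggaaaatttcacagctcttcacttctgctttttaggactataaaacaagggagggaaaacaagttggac
Ccl3: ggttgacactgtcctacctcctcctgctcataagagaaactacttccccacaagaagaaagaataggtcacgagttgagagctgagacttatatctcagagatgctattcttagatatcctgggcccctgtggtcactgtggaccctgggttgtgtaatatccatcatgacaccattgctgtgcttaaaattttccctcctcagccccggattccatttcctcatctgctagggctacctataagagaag

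Cxcl2 held 2 matches, 97 and 78 bases before the start, Nfkbia held 1 at 29 bases, and Il1b and Ccl3 held none in these windows. Of all 32851 windows, 464 (1.41%) held the motif. Of the 23 cytokine and chemokine genes 15 had an entry, and 7 of them held it (Ccl9, Csf1, Cxcl1, Cxcl2, Cxcl3, Il1rn and Il6). In the NF-κB list 4 of 19 genes with an entry held it (Nfkb2, Nfkbia, Rel and Tnfaip3). A match describes these letters only.

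Inflammasome and pattern recognition genes were mixed. Of 8 inflammasome and interleukin-1 genes that passed, 4 were higher in all 4 libraries, beside 8.59% of all genes, and 4 without db/db 16w, beside 15.5%. Casp4, the caspase that senses cytosolic lipopolysaccharide, was at 108, 64.9, 27.2 and 127 CPM in members against 52.8, 35.0, 11.7 and 73.3 CPM. Pycard, the adaptor of the inflammasome, was at 174, 170, 310 and 105 CPM, with log2 ratios of 0.45, -0.16, 0.10 and -0.63, and Casp1 lay between 22.1 and 32.6 CPM in all 4. Of 11 Toll-like receptor and sensing genes that passed, 5 were higher in all 4 (6 without db/db 16w), beside the same shares, among them Cd14 and Tlr2 (1.49, 0.88, 0.69 and 1.09 log2), the receptor of bacterial lipoproteins. Ccrl2, a receptor that binds chemerin without signalling, was at 1098, 811, 125 and 199 CPM and was the 1 of 6 chemokine receptor genes higher in all 4, a count too near 8.59% to be read as a result.

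Genes of macrophage identity differed less. Of 12 macrophage genes, 4 were higher and 2 lower in all 4 libraries (4 and 3 without db/db 16w), beside 8.59% and 11.5% of all genes, with medians between -0.14 and 0.23 log2. Lyz2, the lysozyme of macrophages and neutrophils, was at 6647, 8422, 13380 and 7613 CPM in members. Adgre1, which encodes F4/80, was at 256, 336, 277 and 542 CPM with log2 ratios of 0.27, 0.46, 0.24 and 0.42. MHC class II genes, which present antigen, were higher in all 4 libraries for 4 of 7 genes, beside 8.59%, and for 4 without db/db 16w. Cd74, their invariant chain, was at 13558, 10052, 3550 and 14656 CPM in members against 7799, 5631, 2223 and 10753 CPM. H2-Aa was at 6963, 4415, 1316 and 6462 CPM, so db/db 16w members held the least of both genes.

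Genes of the other macrophage states were mostly not higher in members. Of 12 further lipid-associated genes, none was higher and 5 were lower in all 4 libraries, beside 8.59% and 11.5% of all genes, and without db/db 16w these counts were 0 and 7, beside 15.5% and 18.7%. The list had medians of -0.16, -0.63, -0.37 and -0.78 log2. Lgals3, a lectin of phagocytes, was at 1335, 2736, 3224 and 1997 CPM in members against 994, 4248, 4229 and 3353 CPM. Lpl, which frees fatty acids from lipoproteins, was at 1045, 1880, 1169 and 1610 CPM against 461, 3148, 1994 and 2659 CPM, so both were higher in members in WT alone. Of 10 further perivascular genes 1 was higher in all 4, near the 8.59% of all genes. It was Mrc1, the mannose receptor, at 562, 571, 582 and 708 CPM against 312, 323, 262 and 628 CPM. Retnla, a gene of alternative activation, was at 7529, 4624, 65.2 and 658 CPM, with log2 ratios of 0.95, 0.95, -2.51 and -1.95.

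Cell cycle genes were mostly at lower levels in members. Of 8 that passed, 6 were lower in all 4 libraries, beside 11.5% of all genes, and 6 without db/db 16w, beside 18.7%. Ube2c, the ubiquitin-conjugating enzyme of the anaphase-promoting complex, was at 4.96, 23.0, 32.6 and 5.53 CPM in members and 72.0, 94.0, 148 and 50.3 CPM in Il1b-low macrophages. Nusap1, a spindle protein, and Smpd3, a sphingomyelinase, completed the 3 genes at least 2-fold lower in all 4. Member UMIs behind Ube2c were 3, 67, 6 and 1, and the call of at least 2-fold was lost for all 3 genes when cells were gated on 1000 UMIs. There the WT direction turned for Ube2c (0.81 log2, from 9 UMIs in members and 1 in Il1b-low cells) and Nusap1 (0.64 log2, from 3 and 0 UMIs).

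Immediate-early and heat shock genes, which also respond to tissue digestion, did not move one way over all 4 libraries. Of 20 immediate-early genes that passed, 7 were higher in all 4 libraries, beside 8.59% of all genes, and 7 without db/db 16w, beside 15.5%. At least 2-fold higher were 14 in db/db 16w, beside 2.19% of all genes, 3 in WT, beside 7.06%, and 0 in each of the other libraries. The medians were 0.02, 0.21, 1.07 and 0.11 log2. Fos was at 2974 CPM in db/db 16w members against 1196 CPM in Il1b-low cells, and at 1763 against 1849 CPM in WT. Of 11 heat shock genes, 0 were higher and 2 lower in all 4 libraries, beside 8.59% and 11.5% of all genes. Without db/db 16w, 0 were higher and 8 lower, beside 15.5% and 18.7%. Heat shock genes had medians of -2.61, -0.48, 0.61 and -0.15 log2. Hspa1a was at 835 against 7491 CPM in WT and at 1930 against 641 CPM in db/db 16w. Over all C1q macrophages the immediate-early list summed to 31836, 16167, 5210 and 9156 CPM, and in stromal-gated cells to 18231, 13517, 5367 and 16378 CPM. The part of tissue handling in the Il1b, Ccl3 and Ccl4 levels was not tested.

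Members in which Il1b gave more UMIs than Ccl3 and Ccl4 together are called Il1b-led here, and the other members Ccl-led. Il1b-led cells numbered 25 of 60 in WT, 251 of 391 in db/db 8w, 11 of 39 in db/db 16w and 28 of 47 in HFD. In the 3 libraries with at least 15 cells of each kind, WT, db/db 8w and HFD, Slpi was the 1 of 5156 genes (0.0194%) at least 2-fold higher in Il1b-led cells of all 3, and 0 genes were lower. Slpi, a secreted inhibitor of neutrophil elastase, was at 140, 86.6 and 17.6 CPM in Il1b-led cells and 0, 29.1 and 0 CPM in Ccl-led cells, with 2 UMIs in HFD. Cxcl2 differed little, at 18608 against 14921 CPM in WT, 23738 against 22741 in db/db 8w and 6239 against 6499 in HFD.

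Named after their values were seen, several genes leaned one way in all 3 libraries at a smaller fold. Their values are given for WT, db/db 8w and HFD, in that order. By the smallest ratio, Fpr2 and Csf3r came next after Slpi. Csf3r, a neutrophil marker, was at 37.8, 41.1 and 17.6 CPM in Il1b-led and 17.6, 16.9 and 0 CPM in Ccl-led cells. Ptgs2 was at 2407, 898 and 114 CPM in Il1b-led and 1474, 341 and 59.8 CPM in Ccl-led cells, from 13 and 4 UMIs in HFD. Plac8, a gene of monocytes, was at 601, 9.74 and 299 CPM against 341, 1.88 and 134 CPM, from 18 and 2 UMIs in db/db 8w. In the other direction, Ccl2 was at 608, 502 and 246 CPM in Il1b-led and 1477, 876 and 1180 CPM in Ccl-led cells. Atf3, a stress-induced transcription factor, was at 971, 403 and 395 CPM against 1424, 1256 and 956 CPM. At any fold, 753 genes (14.6%) were higher and 690 (13.4%) lower in Il1b-led cells of all 3, so a shared direction was common.

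Members of the obese libraries were then set beside WT members. Of 5178 genes with a mean of at least 20 CPM, 32 (0.618%) were at least 2-fold higher in all 3 obese libraries and 43 (0.83%) at least 2-fold lower. The 3 ratios share the WT library and its 60 cells. Without db/db 8w the counts were 108 higher and 176 lower, with db/db 16w taken out 55 and 51, and with HFD taken out 63 and 82. By library, 108 (2.09%), 641 (12.4%) and 422 (8.15%) genes were at least 2-fold higher, and 100 (1.93%), 939 (18.1%) and 382 (7.38%) lower. Over the same 5178 genes, 1.08% were at least 2-fold higher and 0.927% lower in both db/db 8w and HFD. Median log2 ratios of all genes were 0.03, -0.06 and 0.06.

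Fabp4, a fatty acid carrier of adipocytes and macrophages, was at 213 CPM in WT members and at 2481, 658 and 2324 CPM in those of the obese libraries, and it was not among the 32 genes once predicted doublets were removed. Il1b-low macrophages held 235, 2327, 1158 and 4191 CPM, so members and Il1b-low cells leaned the same way. Igf1, insulin-like growth factor 1, was at 72.8, 229, 277 and 199 CPM in members and at 144, 236, 227 and 231 CPM in Il1b-low cells. Ctsk, the protease cathepsin K, was at 9.92, 80, 783 and 44.3 CPM. Myo1e (8.27, 159, 59.8 and 60.9 CPM), Actn1 (4.96, 48.0, 32.6 and 33.2 CPM) and Syne1 (1.65, 26.1, 21.7 and 71.9 CPM) rested on 5, 3 and 1 UMIs in WT. At least 1 of 6 adipocyte genes (Adipoq, Ucp1, Cidec, Plin1, Car3, Cidea) was found in 6.67%, 6.65%, 5.13% and 34.0% of members, and its part in the Fabp4 level was not tested.

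Interferon-induced genes were mostly at lower levels in members of the obese libraries. Of 6 genes of the interferon list that passed, 4 were at least 2-fold lower in all 3, beside 0.83% of all genes, and 4 without db/db 16w, beside 0.927%. The list had medians of -1.41, -5.00 and -4.20 log2. On the CPM scale without a pseudocount and with absent genes at 3 counts, the medians over 7 genes were -1.70, -4.20 and -4.08. Rsad2, the antiviral enzyme viperin, was at 807 CPM in WT members and 87.9, 0 and 16.6 CPM in the obese libraries, at least 49.5-fold lower in db/db 16w. Ifit1, which binds viral RNA, was at 281, 57.0, 0 and 16.6 CPM, and Isg15, a ubiquitin-like modifier, at 587, 347, 0 and 5.53 CPM. In Il1b-low macrophages Rsad2 was at 312, 16.6, 4.45 and 40.1 CPM and Isg15 at 96, 72.8, 2.83 and 47.5 CPM, also below WT. Rtp4 (139, 25.1, 16.3 and 5.53 CPM) was a further gene of the 43.

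Ly6c2, the marker of inflammatory monocytes, was at 146 CPM in WT members and at 1.72, 0 and 11.1 CPM in the obese libraries. Ccr2, the receptor that brings monocytes into tissue, was at 397, 150, 38.1 and 470 CPM, so HFD members were not below WT for it. Plac8 was at 455, 6.86, 5.44 and 238 CPM. Of the cells themselves, 27 of 60, 37 of 391, 2 of 39 and 9 of 47 members held at least 2 of 5 monocyte markers. Median UMIs per member were 9701, 6739, 4080 and 3912, and the part of depth in these counts was not tested. Cfb, complement factor B, was at 76.1, 3.09, 10.9 and 0 CPM.

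The cytokine and chemokine list had a median log2 ratio to WT in members of -0.24, -4.03 and -2.07, and in Il1b-low macrophages 0.87, -0.82 and -0.45. With absent genes at 3 counts and no pseudocount the member medians were -0.25, -4.10 and -2.12. Of 19 genes 5 (Acod1, Ccl5, Cxcl10, Il6 and Ptgs2) were at least 2-fold lower in all 3, beside 0.83% of all genes, and 5 without db/db 16w, beside 0.927%. Acod1 and Ptgs2 are enzymes, and the other 3 are cytokines or chemokines. Il6 was at least 37.4-fold lower in db/db 16w and at least 36.8-fold lower in HFD than in WT members, and Cxcl10 at least 106-fold lower in db/db 16w. Cxcl2 was 0.50 log2 above WT in db/db 8w members and 5.53 and 1.38 log2 below it in db/db 16w and HFD. NF-κB genes had medians of -0.21, -2.05 and -0.62, with Nfkbia at -0.21, -3.01 and -1.97 log2. Members met the same minimum of Il1b, Ccl3 and Ccl4 in each library, and the medians of both lists were lowest in db/db 16w. Single genes did not all follow the medians, since Rel and Nlrp3 were at their highest in HFD members (1101 and 537 CPM).

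**Figure D5:**
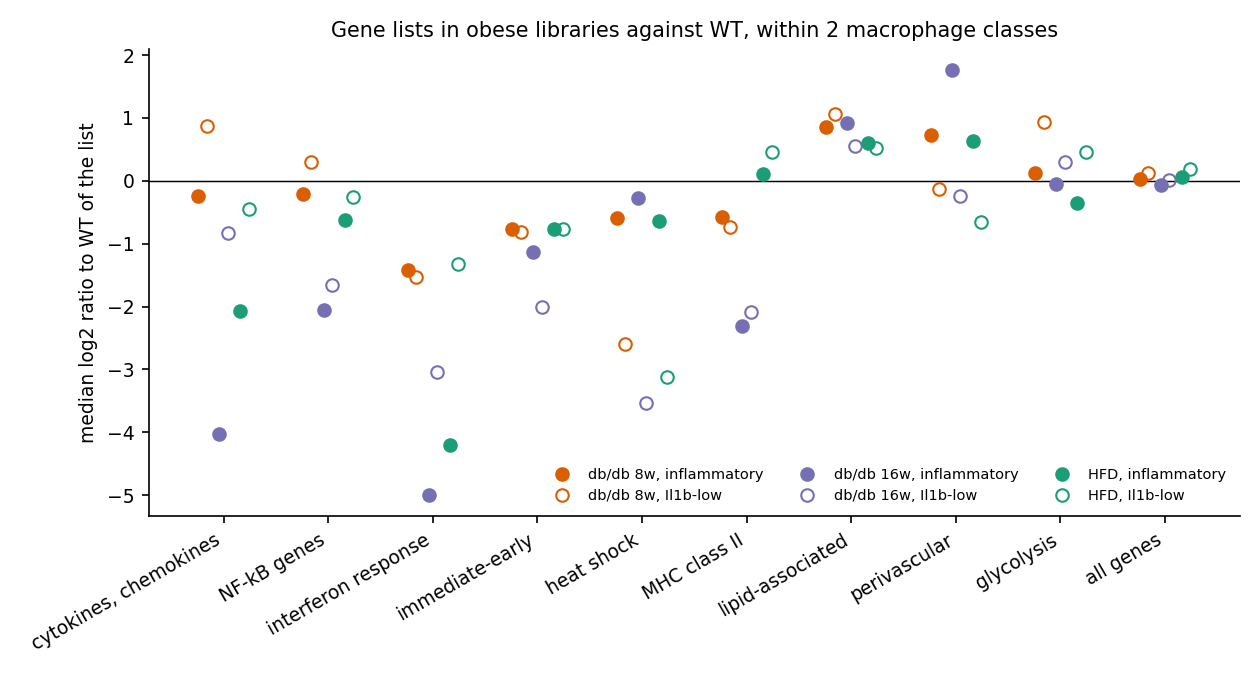
Median log2 ratio to WT (y axis) of each gene list in members (filled points) and Il1b-low macrophages (open points) of the obese libraries. In members, cytokines stand at -0.24, -4.03 and -2.07 and interferon genes at -1.41, -5.00 and -4.20 (db/db 8w first, HFD last), while lipid-associated genes stand at 0.86, 0.91 and 0.60 and perivascular genes at 0.74, 1.76 and 0.63.

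Lipid-associated genes other than those of the rule had medians of 0.86, 0.91 and 0.60 log2 over 12 genes in obese members. By library 4, 5 and 1 of them were at least 2-fold higher, beside 2.09%, 12.4% and 8.15% of all genes. The 1 of 12 in HFD was near the share of all genes. In all 3 libraries 1 was at least 2-fold higher, beside 0.618% of all genes (1 also without db/db 16w, beside 1.08%). The perivascular list, without the genes of the rule, had medians over 9 genes of 0.74, 1.76 and 0.63 in members. In Il1b-low macrophages they were -0.13, -0.24 and -0.66. Of the 9 genes 1 was at least 2-fold higher in members of all 3, beside 0.618% of all genes. Apoe, an apolipoprotein made by macrophages, was at 4978 CPM in WT members and 9438, 9449 and 8305 CPM in those of the obese libraries. In Il1b-low macrophages Apoe was at 6670, 5949, 4173 and 6352 CPM, none of the obese libraries above WT. For the lipid-associated list, Il1b-low macrophages had medians of 1.06, 0.55 and 0.52. MHC class II genes had medians of -0.58, -2.30 and 0.11 in members.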

How the data were processed

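Each library was the stromal vascular fraction of BAT of 3 pooled mice, run on the 10x Chromium platform. The authors deposited filtered UMI counts per gene and barcode. The file headers name Cell Ranger 6.0.0, the submitters' processing notes Cell Ranger 7.1.0 and mm10. Barcodes were kept with more than 250 but fewer than 6000 genes, more than 500 but fewer than 30000 UMIs, and a mitochondrial share below 15%. Doublets were predicted with Scrublet in scanpy 1.11.5, at 0.8% per 1000 barcodes, and kept. Median UMIs per member were between 3912 and 9701. Deposited counts of each class were summed per library, scaled to CPM and compared as log2 of CPM plus 10, for genes with a mean of at least 20 CPM. No p-value was computed. The code was tested on simulated data. Members and gene lists were chosen with earlier results of these data known. Named were the genes of the rule, the 15 highest and 10 lowest ratios, 6 each way against WT and up to 4 per list by level, of which the text gives a selection, with other list members added after their values were seen.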

Additional observations from a re-analysis of the deposited data

How the results depend on the processing

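Of 76 values under other settings, 44 stayed within the interval of the share or within 1.5 times the count, and 32 did not. For gene counts this compares how many genes were called, not which ones. With every cell thinned to 1000 UMIs before gating, the 7 higher and 4 lower genes shared 0 with the main lists. Against all other C1q macrophages, 4 of 9 higher (Areg, Arl5c, Nlrp3 and Ptgs2) and 0 of 2 lower genes were shared. No paired analysis was possible because each group was 1 library. Without the perivascular and lipid-associated limits the member share was 32.5% in WT and 46.6%, 4.93% and 4.01% in the obese libraries. At a limit of 10 for Il1b, Ccl3 and Ccl4 they were 16.9%, 3.67% and 6.50% in these, and at 40 they were 12.2%, 0.956% and 0.729%. The db/db 8w share was 12.5% with a C1q limit of 20 and 11.1% with cells thinned to 1000 UMIs, still above the other libraries. Against Il1b-low macrophages, a pseudocount of 1 CPM gave 11 higher and 10 lower genes, and leaving out a library in turn gave 6 to 22 higher (22 without db/db 16w, 10 without db/db 8w) and 4 to 10 lower (5 without WT, 10 without db/db 8w, 5 without db/db 16w). A mean level of at least 50 CPM left 1 lower gene (Ube2c), and so did removing doublets (Smpd3). Cells gated on 1000 UMIs with all UMIs summed, added after seeing the data, gave 1 higher (Nlrp3) and 0 lower. Against WT, a pseudocount of 1 CPM gave 93 higher genes, a mean level of at least 50 CPM 14 higher and 24 lower, no filter 66 lower, and leaving out an obese library 55 to 108 higher (108 without db/db 8w, 55 without db/db 16w, 63 without HFD) and 51 to 176 lower (176 without db/db 8w, 82 without HFD). Leaving out cells high for S100a8 and S100a9, also added after seeing the data, gave 6, 3, 30 and 46 genes in the 4 counts. Where no value shows a cause, the cause was not tested. Depth limits db/db 16w and HFD members most: 3 counts were 16.3 and 16.6 CPM there, against 4.96 in WT and 1.03 in db/db 8w.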
